A study of Mus musculus with 72 samples.

Results

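Phosphatidylcholine and phosphatidylethanolamine, the main phospholipids of liver membranes, lipoproteins and bile, differ in their head group, choline or ethanolamine. The genes described here handle those head groups or the lysophospholipids made from them. They are 9 enzyme genes, Etnppl, Pemt, Chka, Chkb, Pcyt1a, Pcyt2, Etnk1, Etnk2 and Lpcat3, and the transporter gene Mfsd2a. Members were taken by gene symbol, with the probe set of a single symbol that had the highest mean over all arrays. Of the 10 listed genes, 8 were measured, out of 19938 genes in all, each by 1 such probe set. The probe set for Chkb carried several symbols and was not used, and Etnk2 was not analysed here. The list was chosen on the diet differences of these same arrays, so the members' diet differences below are a description and carry no test.

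The samples were livers of singly housed, random-fed wild-type male mice of 4 inbred strains. The strains were 129P2/OlaHsd (129), C57BL/6J (B6J), C57BL/6NTac (B6N) and C3HeB/FeJ (C3H). One group of each strain ate a high-fat diet (HFD) for 21 days. The controls are labelled as having had no treatment, while the protocol names a low-fat diet of at most 21 days, so what each control ate is not settled. All 129 mice and all HFD mice were 17 weeks old, and controls of B6J, B6N and C3H were 15 to 17 weeks old, so age and diet cannot be fully told apart in those 3 strains. There were 72 arrays: 8 of 129 controls and 7 of 129 on HFD, likewise 8 and 7 for B6J, 8 and 8 for B6N, and 18 and 8 for C3H. Whole liver RNA was measured, in which fewer cells of a type and less RNA per cell cannot be told apart.

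Values are log2 probe set signals on Affymetrix Mouse Gene ST arrays, normalised by RMA. Array medians were 6.46 to 6.65 in 129, 4.51 to 4.67 in the B6 strains and 3.10 to 3.28 in C3H. Levels were therefore set side by side only where array medians agreed, that is inside 129, inside C3H and among B6J and B6N, and never between probe sets. The arrays fell along 1 main axis of residual variation in each of these sets, which held 33.3%, 29.4% and 26.9% of the residual variance. In 129 a single array, control replicate 6, made up 69.2% of it. In B6 and C3H the arrays were divided into 2 parts by the sign of their score on the axis. Such a division can be made in any data and is not a known batch. Values are given separately for these parts. The mean of 7 hepatocyte markers lay 6.74 to 8.92 log2 units above the array median on every array. Means of bile duct, lymphocyte and adipocyte markers lay between -0.77 and 0.42 relative to it. Those of macrophage, endothelial, stellate and red blood cell markers lay 1.81 to 3.63 above it. Means of 10 pancreatic acinar markers spread from 0.21 to 7.19, and 0 of the 10 were called for diet in any strain by limma (4 at an unadjusted p under 0.05 in B6N and 0 in the other 3 strains). Across arrays the deviations of the members from their group means correlated with that acinar mean at r between -0.23 and 0.28.

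Choline and ethanolamine enter the same kind of route. Chka and Chkb encode kinases that phosphorylate choline, and Etnk1 and Etnk2 encode kinases of ethanolamine. Pcyt1a and Pcyt2 encode the cytidylyl transferases that activate phosphocholine and phosphoethanolamine, the slow steps of the Kennedy pathways. Pemt encodes the liver enzyme that methylates phosphatidylethanolamine to phosphatidylcholine. Etnppl encodes a lyase that breaks phosphoethanolamine down and so removes it from the pathway. Lpcat3 encodes an acyltransferase that puts polyunsaturated chains into lysophospholipids, and Mfsd2a encodes a sodium-dependent carrier of lysophosphatidylcholine, known for supplying the brain with docosahexaenoic acid and for its induction in fasted liver.

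The stretches before the start sites of Mfsd2a and Etnppl are shown because these members had the highest and the lowest mean diet differences. They come from RefSeq (GRCm38.p6), read 5′ to 3′ on the gene's strand, and leave out any base inside the annotated gene. That of Mfsd2a is chr4:122961195-122961438 on the minus strand, just before a gene at chr4:122946850-122961194. That of Etnppl is chr3:130617198-130617447 on the plus strand, before a gene at chr3:130617448-130635750. Capitals mark AGGTCA, the half-site bound by many nuclear receptors.
Mfsd2a: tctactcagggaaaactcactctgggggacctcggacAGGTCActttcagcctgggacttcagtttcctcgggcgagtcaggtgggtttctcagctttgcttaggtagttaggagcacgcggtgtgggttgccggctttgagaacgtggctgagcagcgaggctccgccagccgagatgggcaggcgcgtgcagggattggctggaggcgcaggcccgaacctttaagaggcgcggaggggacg
Etnppl: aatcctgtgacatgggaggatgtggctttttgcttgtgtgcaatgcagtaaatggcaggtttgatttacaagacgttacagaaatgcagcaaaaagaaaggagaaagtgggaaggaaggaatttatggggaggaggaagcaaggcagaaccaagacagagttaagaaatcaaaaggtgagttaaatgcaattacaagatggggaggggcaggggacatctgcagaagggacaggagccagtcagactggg
The 250 bases before each start were searched on both strands for AGGTCA, for the E-box CACGTG, for the cAMP response element TGACGTCA and for the D-box TTATGTAA, none of which contains another. Among 32851 promoter windows of this length, 14%, 6.02%, 1.55% and 0.819% held them. The only match in a listed gene with a window was the AGGTCA that begins 213 bases before the Mfsd2a start used for the search. The last 6 bases of that window lie inside the annotated gene and are not in the printed stretch. A match of these letters is a description of the window and not a measured binding site.

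Mfsd2a, the carrier, was the member with the largest diet difference. Its signal was higher on HFD in 4 of 4 strains, by 2.25 ± 0.20 on the log2 scale as the mean of the strains (SE of the limma fit). In B6J, control livers had a lowest, median and highest log2 signal of 5.37, 6.12 and 7.22, and HFD livers of 8.66, 9.26 and 9.72. All 7 HFD livers lay above all 8 controls. In B6N, controls had 6.00, 7.16 and 7.74 and HFD livers 8.74, 9.17 and 10.01, again with no overlap. In C3H, controls had 3.14, 5.10 and 7.41 and HFD livers 6.56, 7.65 and 8.53. There 15 of 18 controls lay below all HFD livers and 5 of 8 HFD livers above all controls. In 129, controls had 7.97, 9.17 and 11.24 and HFD livers 9.78, 11.12 and 11.51. Here 2 controls reached into the HFD range and only 2 of 7 HFD livers lay above all controls.

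As folds, HFD over control, Mfsd2a was 7.89 in B6J (95% interval of the fit 4.46 to 13.9), 5.41 in C3H (3.39 to 8.63), 4.71 in B6N (2.72 to 8.16) and 2.58 in 129 (1.46 to 4.55). The fit uses a single residual spread per gene for all groups, so the intervals do not follow each strain's own scatter. Control SDs, for example, were 0.635 in B6J and 1.08 in 129. The intervals share values between 4.46 and 4.55, but with a shared spread this does not show that the strains are alike. Differences between strains were not tested because the list was chosen on these contrasts. Leaving out any 1 array kept the B6J log2 difference at 2.86 to 3.12, that of B6N at 2.08 to 2.33, that of C3H at 2.29 to 2.57 and that of 129 at 1.16 to 1.63. The lowest of these for 129 was without control replicate 6 and the highest without control replicate 5. Within the parts of the arrays, all HFD livers lay above all controls in each of the 6 combinations of strain and part. The diet difference was 3.0 and 2.95 in the B6J parts and 1.95 and 2.54 in the B6N parts. It was 2.80 and 2.20 in the C3H parts. Mfsd2a followed the axis behind the parts at r = 0.06 in B6 and -0.58 in C3H, so the C3H split is not independent of it.

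Among controls, Mfsd2a had the largest SD of the 8 measured members in each of the 4 strains. C3H controls spanned 4.27 log2 units, a 19.3-fold range (SD 1.18, n = 18), and 1 of them lay below its array median. The 129 controls spanned 3.27 units (SD 1.08, n = 8). HFD groups were narrower, with SDs of 0.396 in B6J, 0.401 in B6N, 0.651 in C3H and 0.703 in 129. A level near the array median cannot be told from background here, which makes the C3H fold uncertain in size.

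**Figure D1:**
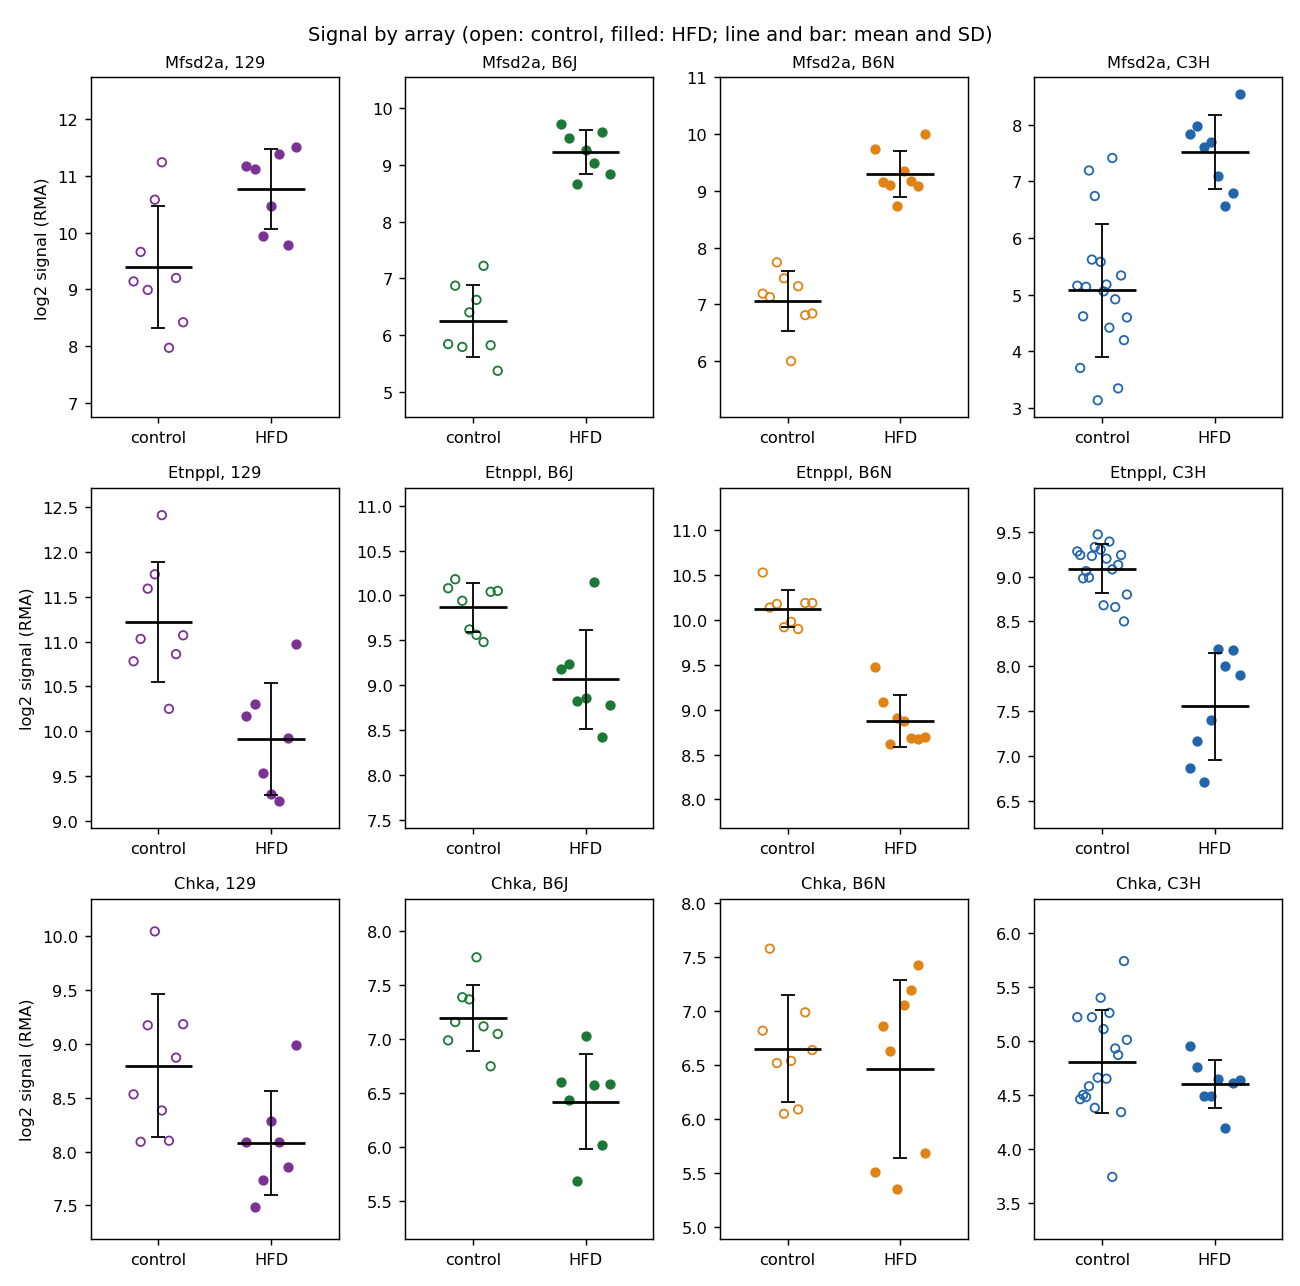
Log2 signal (y axis) of Mfsd2a, Etnppl and Chka on each array, with 1 panel per gene and strain and control and HFD livers side by side. Points are arrays, open for control and filled for HFD, with the group mean (line) and SD (bar); panels of a row span the same number of log2 units but start at different levels. Mfsd2a on HFD lies above all controls in B6J and B6N, Etnppl on HFD lies below all controls in B6N and C3H, and Chka overlaps in all 4 strains.

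Etnppl, the phosphoethanolamine lyase, was lower on HFD in 4 of 4 strains, with a mean difference of -1.22 ± 0.10 on the log2 scale. In C3H, controls had a lowest, median and highest log2 signal of 8.50, 9.16 and 9.47 and HFD livers of 6.71, 7.65 and 8.19. All 8 HFD livers lay below all 18 controls. In B6N, controls had 9.90, 10.16 and 10.53 and HFD livers 8.62, 8.79 and 9.48, also without overlap. In 129, controls had 10.25, 11.05 and 12.41 and HFD livers 9.22, 9.92 and 10.97, and 5 of 7 HFD livers lay below all controls. In B6J, controls had 9.48, 9.99 and 10.18 and HFD livers 8.42, 8.86 and 10.15. There 6 of 7 HFD livers lay below all controls, and HFD replicate 5, at 10.15, was the exception.

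As folds, control over HFD, Etnppl was 2.90 in C3H (95% interval 2.26 to 3.72), 2.47 in 129 (1.82 to 3.34), 2.38 in B6N (1.78 to 3.19) and 1.75 in B6J (1.29 to 2.37). Without B6J HFD replicate 5 the B6J log2 difference went from -0.80 to -0.99. By part, the B6J differences were -0.70 and -1.18, the B6N differences -1.13 and -1.30 and the C3H differences -1.19 and -1.92. HFD livers lay below all controls in 5 of these 6 combinations, and the exception was the B6J part that holds HFD replicate 5. Etnppl followed the axis behind the parts at r = 0.49 in B6 and 0.61 in C3H, so the split is not independent of it. Etnppl and Mfsd2a moved in opposite directions with diet in every strain, but within groups they did not mirror each other. Their deviations from the group means had r = 0.15 over 72 arrays, with 0.69 for 129, -0.26 for B6J, 0.17 for B6N and -0.13 for C3H alone.

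Counted against all genes, the members' diet differences stood as follows, as a description only. A gene was called where limma's adjusted p was under 0.05. In 129, 1 of 8 measured members was called (Etnppl, lower), beside 0.577% of all genes. In B6J it was 1 of 8 (Mfsd2a, higher), beside 0.296%. In B6N and in C3H it was 2 of 8 (Mfsd2a higher and Etnppl lower), beside 0.918% and 0.853%. For the mean of the 4 strains it was 3 of 8 (Mfsd2a higher, Etnppl and Chka lower), beside 3.16%. HFD and control arrays did not overlap for 0, 1, 2 and 1 of the 8 members in 129, B6J, B6N and C3H, beside 0.251%, 0.346%, 0.356% and 0.0552% of all genes. The median log2 difference of the 8 members was 0.09, -0.07, 0.03 and -0.06 in the 4 strains, and that of all genes lay between -0.003 and 0.009. Some of these calls changed with the setting. Etnppl in 129 was not called with only the 129 arrays, which left 0 of 8. Mfsd2a in 129 was called with array weights or without control replicate 5, and Chka in 129 with array weights. In B6J, Chka was called with only that strain's arrays, and Etnppl with quantile normalisation, with the array part as a block or without HFD replicate 5.

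**Figure D2:**
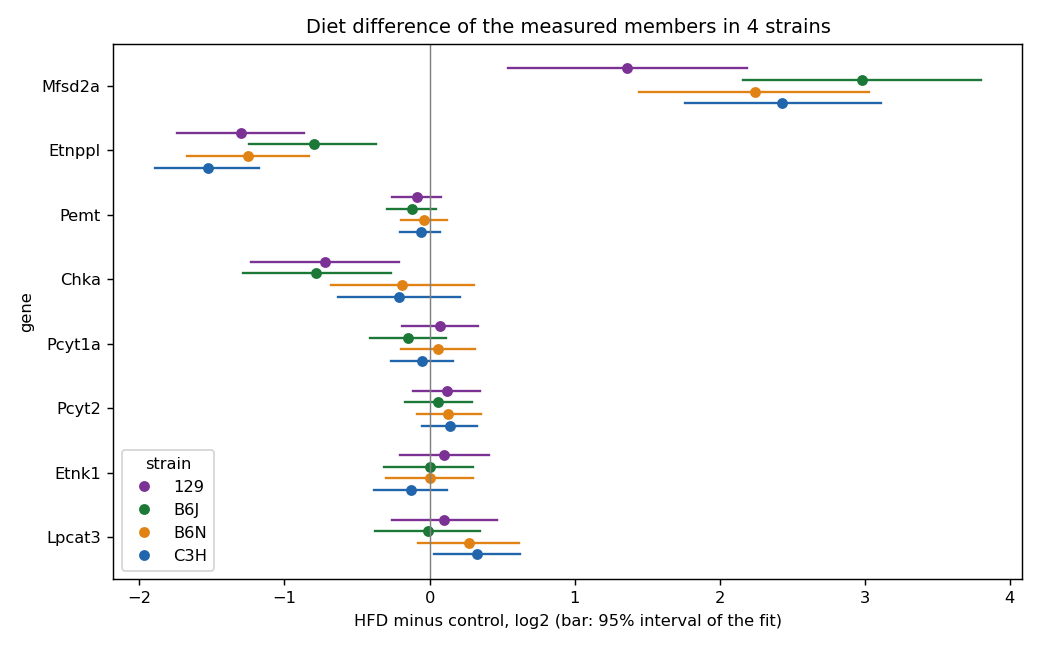
HFD minus control on the log2 scale (x axis) for the 8 measured members (y axis) in 4 strains, with points for the fitted difference and bars for its 95% interval. Mfsd2a lies between 1.36 and 2.98, Etnppl between -1.53 and -0.80 and Chka between -0.78 and -0.19, and the other 5 members lie between -0.15 and 0.33.

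Chka, the choline kinase measured here, was lower on HFD in 4 of 4 strains. The fitted difference was larger in B6J and 129 than in B6N and C3H, and differences between strains were not tested. In B6J, controls had a lowest, median and highest log2 signal of 6.75, 7.14 and 7.76 and HFD livers of 5.69, 6.58 and 7.03. In 129, controls had 8.09, 8.70 and 10.04 and HFD livers 7.49, 8.09 and 8.99. The log2 differences were -0.78 ± 0.26 in B6J and -0.72 ± 0.26 in 129. In B6N, controls had 6.05, 6.59 and 7.58 and HFD livers 5.35, 6.75 and 7.43, so the HFD median lay above the control median while the mean difference was -0.19 ± 0.25. In C3H, controls had 3.74, 4.76 and 5.74 and HFD livers 4.19, 4.62 and 4.95, a difference of -0.21 ± 0.21. HFD and control livers overlapped in every strain. Below all controls lay 6 of 7 HFD livers in B6J, 3 of 7 in 129, 3 of 8 in B6N and 0 of 8 in C3H. The mean of the 4 strains was -0.47 ± 0.12, and that call was lost with array weights.

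The spread of Chka within groups followed clock genes. Likeness was measured as the Pearson correlation of deviations from the group means over the 72 arrays, normalised in the 3 sets above, and is given as a description with no test. Of 19937 other genes, Arntl was the most like Chka (r = 0.89). Arntl encodes BMAL1, the activator at the core of the circadian clock. Taken strain by strain it was 0.87 (129), 0.76 (B6J), 0.96 (B6N) and 0.86 (C3H), and 0.90 without 129 control replicate 6. The second was Elovl3, a fatty acid elongase whose liver mRNA varies with the time of day (r = 0.74, from 0.66 in B6J to 0.89 in B6N). Dbp, a clock output gene in antiphase to Arntl, was the least like it of all genes (r = -0.77, from -0.66 in 129 to -0.89 in B6N). Nr1d2, a clock repressor, had r = -0.64, Cry1 had 0.68 and Per2 had -0.16. These last 4 genes were looked up after Arntl had been seen.

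The fitted diet differences of Arntl, like those of Chka, were larger in size in 129 and B6J than in B6N and C3H, a pattern that was not tested. On 129 HFD arrays Arntl lay on average 0.37 above the array median, and 3 of 7 arrays fell below it. Its difference in 129 is therefore uncertain in size. Arntl differed by -0.77 ± 0.28 (129), -0.81 ± 0.28 (B6J), -0.18 ± 0.27 (B6N) and -0.23 ± 0.23 (C3H), and it was not called in any of them (limma adjusted p 0.36, 0.44, 1.0 and 0.90). Dbp was 1.04 ± 0.38, 0.99 ± 0.38, 0.27 ± 0.36 and 0.39 ± 0.31, and was not called either (0.36, 0.59, 1.0 and 0.85). Per2 was called in 129, at 0.59 ± 0.14 (limma adjusted p 0.021). It differed by 0.28 in B6J, 0.02 in B6N and 0.22 in C3H without a call. Nr1d2 and Cry1 were not called in any strain. The part of these clock genes in the Chka difference was not tested. The lowest and highest Chka livers on HFD in B6N, 5.35 and 7.43, differed 4.22-fold, and Arntl in the same group ranged from 4.70 to 6.63.

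**Figure D3:**
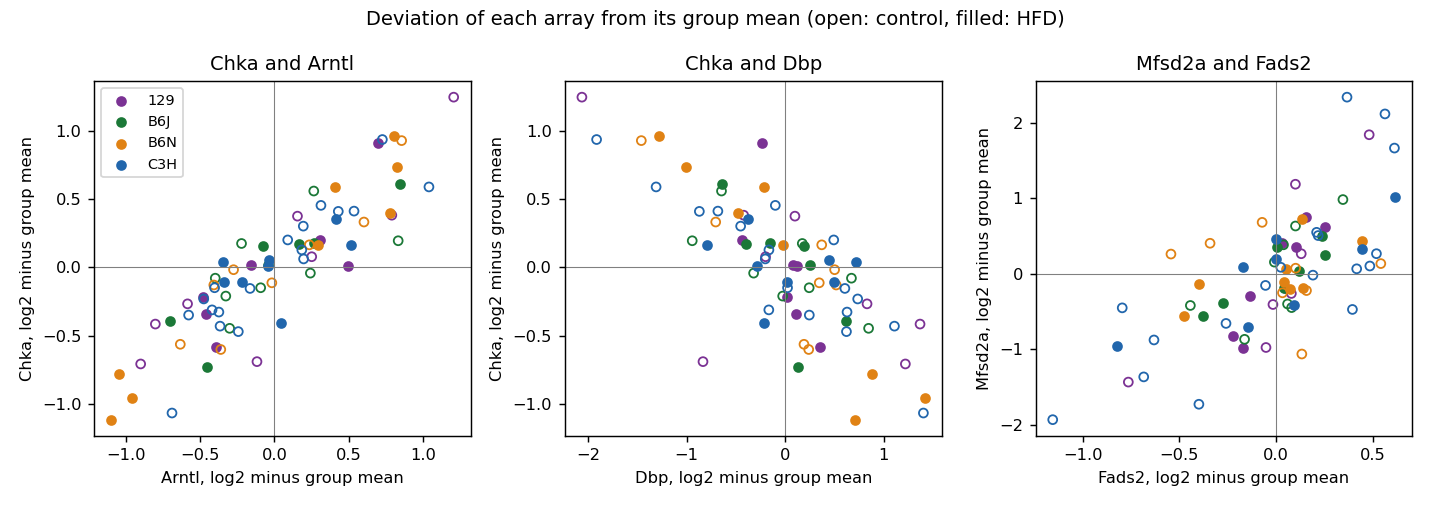
Deviation of each of the 72 arrays from its group mean on the log2 scale for Chka against Arntl, Chka against Dbp, and Mfsd2a against Fads2, with colours for strains and filled points for HFD. Chka rises with Arntl in all 4 strains (r = 0.89), runs against Dbp (r = -0.77), and Mfsd2a follows Fads2 (r = 0.69) except among the B6N arrays (r = 0.06).

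Mfsd2a had its own neighbours. The 5 genes most like it were Tob1 (r = 0.71), an antiproliferative regulator, Gstt3, a glutathione transferase (0.69), Fads2 (0.69), Gjb2, a gap junction protein (0.68), and Slc26a1, a sulfate carrier (0.68). Within 129 and C3H the correlations of these 5 genes lay between 0.69 and 0.86. Within B6J they were 0.15 for Tob1 and 0.50 to 0.72 for the other 4, and within B6N they lay between 0.06 and 0.20. The 3 genes least like Mfsd2a were Use1 (-0.61), 4933434E20Rik (-0.60) and Mbl1, a mannose-binding lectin (-0.60), and in B6N these were 0.16, 0.15 and 0.16. Of the neighbours, Fads2, the delta-6 desaturase of polyunsaturated fatty acid synthesis, also rose on HFD, by 0.96 ± 0.19 in B6J, 1.15 ± 0.18 in B6N and 0.81 ± 0.16 in C3H (limma adjusted p 0.0030, 1.6e-05 and 0.00074). In 129 its difference was 0.36 ± 0.19 (adjusted p 0.96). Tob1, Gjb2 and Slc26a1 differed with diet by no more than 0.24 in any strain, and Gstt3 by -0.69 to -0.08, with none of the 4 called.

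Etnppl was most like Dpyd, the first enzyme of pyrimidine breakdown (r = 0.65), followed by Uvrag (0.63), Spag9, Hbs1l and Ptpn12 (0.62 each). None of these 5 was called for diet in any strain, and their differences lay between -0.23 and 0.22. Its least like genes were Dlgap3 (-0.60), Nkx2-4 and Foxe3 (-0.59 each). Only 14 genes had a correlation with Etnppl above 0.6 in size, and 2 without 129 control replicate 6. For Chka the number was 24 with or without that array, and for Mfsd2a it was 77 and 37.

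Pcyt1a, Pcyt2, Etnk1 and Lpcat3 correlated above 0.6 in size with many genes, 841, 577, 1173 and 1507 of them. Without 129 control replicate 6 these numbers were 510, 364, 752 and 1290. Among themselves the 4 genes had r from 0.41 to 0.70 over all arrays and from 0.80 to 0.95 within 129. Within B6J the pairs with Pcyt2 were lower, at -0.18 with Pcyt1a, -0.31 with Etnk1 and 0.19 with Lpcat3. In 129 they followed the main axis of residual variation at r = 0.93, 0.90, 0.95 and 0.87, an axis that rested mostly on control replicate 6. Along the B6 axis the values were 0.69, -0.35, 0.75 and 0.15, and along the C3H axis -0.21, -0.16, -0.29 and -0.56, where the sign of an axis has no meaning of its own. The 129 control replicate 6 had the lowest control signal of all 4, 8.08 for Pcyt1a against 9.24 in the next control, 10.72 against 11.25 for Pcyt2, 7.93 against 8.88 for Etnk1 and 10.59 against 11.52 for Lpcat3. The genes most like them were Nsf and Acadl for Pcyt1a (0.81 and 0.80), Masp2 and Txndc5 for Pcyt2 (0.85 and 0.81), Cand1 and Mon2 for Etnk1 (0.81 each), and Sema4a and Aplp2 for Lpcat3 (0.91 each). The r with the mean of 8 endothelial markers was 0.60 for Pcyt1a, 0.46 for Pcyt2, 0.72 for Etnk1 and 0.52 for Lpcat3. With the mean of 7 hepatocyte markers it was 0.49, 0.53, 0.43 and 0.64 in the same order. Both sets of values include 129 control replicate 6. The genes most like Pemt were Alg1 and Clpp (0.69 each).

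**Figure D4:**
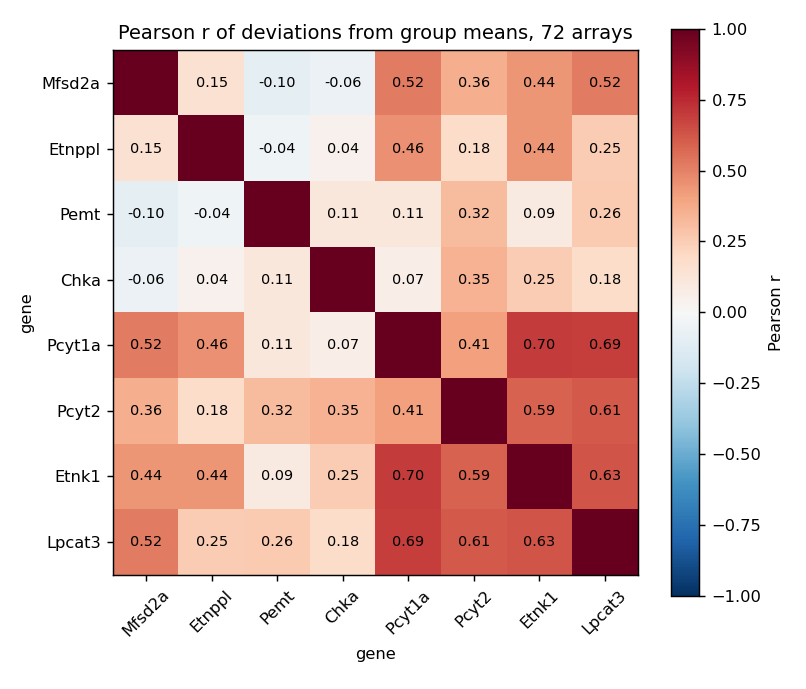
Pearson correlation of deviations from group means over 72 arrays between each pair of the 8 measured members, as colour and printed value, with both axes listing the genes. Pcyt1a, Pcyt2, Etnk1 and Lpcat3 correlate with one another between 0.41 and 0.70, Mfsd2a with Pcyt1a and Lpcat3 at 0.52, and Chka with no member above 0.35.

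The activation steps showed small diet differences. Pcyt1a, the cytidylyl transferase of the choline route, had diet differences of 0.07 ± 0.13 (129), -0.15 ± 0.13 (B6J), 0.06 ± 0.13 (B6N) and -0.05 ± 0.11 (C3H). In 129, controls had a lowest, median and highest log2 signal of 8.08, 9.30 and 9.40 and HFD livers of 9.04, 9.24 and 9.43. Without 129 control replicate 6 the 129 difference was -0.08. Pcyt2, its counterpart in the ethanolamine route, was higher in 4 of 4 strains by 0.06 to 0.14, with a mean of 0.11 ± 0.05. Its folds had 95% intervals from 0.89 at the lowest to 1.28 at the highest over the 4 strains, and its controls and HFD livers overlapped in each. In C3H, for example, controls had 8.61, 8.90 and 9.44 and HFD livers 8.65, 9.03 and 9.54.

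Etnk1, the ethanolamine kinase measured here, differed by 0.10 ± 0.15 in 129 and -0.13 ± 0.13 in C3H, and by 0.00 ± 0.15 in both B6 strains. Its control and HFD medians were 8.13 and 8.21 in B6J and 7.94 and 7.92 in B6N. The 95% intervals still allowed signals up to 1.33-fold higher on HFD in 129 and up to 1.3-fold lower in C3H.

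Pemt, the methyltransferase that makes phosphatidylcholine from phosphatidylethanolamine, varied little. In 129, controls had a lowest, median and highest log2 signal of 12.79, 12.92 and 12.97 and HFD livers a lowest and median of 12.64 and 12.77, with the highest HFD liver above the highest control. SDs were 0.064 to 0.234 over the 8 groups. Its differences were -0.12 to -0.04, lower in 4 of 4 strains, and in B6J the 95% interval of the fold, control over HFD, reached from 0.97 to 1.22. Under the alternative settings the C3H difference lay between -0.09 and 0.05, so its sign there depends on the setting.

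Lpcat3, the acyltransferase of lysophospholipids, differed by 0.33 ± 0.15 in C3H and 0.27 ± 0.17 in B6N, and by 0.10 ± 0.18 in 129 and -0.01 ± 0.18 in B6J. In C3H, controls had a lowest, median and highest log2 signal of 6.88, 7.89 and 8.46 and HFD livers of 7.66, 8.16 and 8.79. Lpcat3 itself followed the axis that defines the C3H parts (r = -0.56), so values by part do not show where the C3H difference lies. The C3H difference was 0.78 in the part with 8 controls and 4 HFD livers and -0.06 in the part with 10 and 4. In B6N the parts gave 0.36 and 0.21.

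Levels could be compared between the B6 strains. The members were chosen on diet differences made from these same livers, so the p-values here are not independent of that choice. Of 8 members, 0 were called between B6N and B6J controls, beside 0.0351% of all genes, and 0 between the strains on HFD, beside 0.191%. An unadjusted limma p under 0.05 was reached by 2 of 8 members between controls and 0 of 8 on HFD, and by 1365 and 1224 of all 19938 genes. The B6N minus B6J difference of controls was 0.82 ± 0.40 for Mfsd2a (95% interval 0.02 to 1.61, limma p = 0.044, adjusted p = 0.72), with 7 of 8 B6N controls above the B6J mean. For Chka it was -0.54 ± 0.25 (-1.04 to -0.05, limma p = 0.031, adjusted p = 0.71), with 7 of 8 below the B6J mean. Over 24 alternatives the adjusted p lay between 0.36 and 1.0 for Mfsd2a and 0.46 and 1.0 for Chka. On HFD the B6N minus B6J difference was 0.07 ± 0.41 for Mfsd2a (-0.75 to 0.89) and 0.05 ± 0.26 for Chka (-0.46 to 0.56). Whether the strain difference itself changed with diet was not tested.

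The wider pathway was followed through 5 lists of 84 measured genes that are not members. For the mean of the 4 strains, 7 rose and 3 fell, 11.9% of them, against 3.16% of all genes. With only the brighter genes kept, 606 of 9969 genes were called for that mean. The lists were chosen with earlier results of these data known, so their shares and p-values are a description. By strain, 129 and B6N had 3 calls each (3.57%), C3H had 2 (2.38%) and B6J had 0; there 7 had an unadjusted p under 0.05 in limma. The medians of the lists lay between -0.01 and 0.06 for the mean of the strains, beside 0.002 for all genes, and no list was tested as a whole. Markers of other cells and of hepatocytes moved in the same mean. Of 10 macrophage markers 5 rose (9 at an unadjusted p under 0.05 in limma), such as Cd5l by 0.41 ± 0.08 (adjusted p = 0.00018). Of 8 endothelial markers Lyve1 rose, by 0.22 ± 0.06 (0.018), not called with the replicate block. Of 7 hepatocyte markers 2 fell, Cps1 of the urea cycle, with -0.31 ± 0.06 (0.00027), and Tat, with -0.25 ± 0.08 (0.047), a call lost under 48 of 79 alternatives. In C3H, Cps1 had -0.48 ± 0.10 (0.0049), not called with only the C3H arrays. The part of these markers in the pathway results was not tested.

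Among 13 genes of phospholipid transport, 2 rose and 0 fell in the mean of the strains. Pctp, which encodes the cytosolic phosphatidylcholine transfer protein, rose by 0.66 ± 0.09 as the mean of the strains (limma adjusted p = 4.4e-08), more than any other of the 84 genes. It rose by 0.93 ± 0.15 in C3H (adjusted p = 2.5e-05) and 0.71 ± 0.18 in B6N (0.024), and differed by 0.56 ± 0.19 in B6J (0.34) and 0.42 ± 0.19 in 129 (0.72). The B6N call was lost without any 1 of B6N control replicates 5 to 8 or HFD replicates 1 to 3 (adjusted p up to 0.11). Abcb4, the canalicular floppase that moves phosphatidylcholine into bile, rose by 0.39 ± 0.07 on average (7.1e-05) and by 0.71 ± 0.15 in B6N (0.0014).

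Among 14 genes of glycerophospholipid synthesis, 2 rose in the mean of the strains. Chpt1, which joins activated choline to diacylglycerol, rose by 0.27 ± 0.06 (limma adjusted p = 0.00092), from 0.12 in 129 to 0.37 in B6N. Pisd, which makes phosphatidylethanolamine from phosphatidylserine in mitochondria, rose by 0.15 ± 0.04 (0.020), a call that median centring and quantile normalisation ended (adjusted p up to 0.15). Of 18 genes of acyl chain remodelling, Pnpla7, a lysophospholipase, rose by 0.14 ± 0.04 (0.030). It was not called with either of those 2 scalings or without 129 control replicate 4 or 8, 129 HFD replicate 5 or C3H HFD replicate 5 (up to 0.13). In 129 alone, Pla2g4a, the cytosolic phospholipase A2, rose by 0.45 ± 0.11 (0.031), a call lost with only the 129 arrays and without 129 control replicate 1, 6, 7 or 8 or HFD replicate 1, 3 or 6 (up to 0.25).

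Of 20 genes of choline supply and one-carbon metabolism, 2 fell in the mean of the strains. Gnmt, which uses up S-adenosylmethionine by methylating glycine, had a difference of -0.22 ± 0.04 (limma adjusted p = 2e-05) and of -0.30 ± 0.07 in C3H (0.0057). The C3H call was lost with quantile normalisation, array weights, only the C3H arrays or the replicate block (up to 0.15). Slc44a1, a choline transporter, had -0.30 ± 0.09 (0.044), and 37 of 72 omissions of 1 array ended that call (up to 0.10). In 129 alone Gdpd1, a lysophospholipase D, had -0.43 ± 0.09 (0.0076), not called with only the 129 arrays.

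Of 19 genes of phosphoethanolamine and sphingolipid metabolism, 2 rose and 1 fell. Samd8, which encodes a synthase of ceramide phosphoethanolamine, had a mean difference of -0.21 ± 0.05 (limma adjusted p = 0.00085) and -0.36 ± 0.09 in B6N (0.024). The B6N call was lost without B6N control replicate 1, 4, 7 or 8 or HFD replicate 5 or 8, and with median centring (up to 0.09). Cers6, a ceramide synthase, rose by 0.39 ± 0.10 (0.0057), with 0.62 in 129 and 0.18 in C3H. Smpd3, a neutral sphingomyelinase, rose by 0.20 ± 0.05 (0.0068) and by 0.41 ± 0.10 in 129 (0.031). Its call in 129 was lost without 129 control replicate 2, 4, 7 or 8 or HFD replicate 6 or 7 (up to 0.16). By strain, macrophage markers were called in 129, where 6 of 10 rose and their mean above the array median was 2.02 to 2.56 on control arrays against 2.41 to 3.63 on HFD arrays. Of these 6, the alternatives were read for Adgre1, Cd5l and Clec4f. None of those was called with only the 129 arrays, and Clec4f lost its call under 15 of 23 alternatives. In B6J, B6N and C3H 0 of the 10 were called (4, 0 and 1 at an unadjusted p under 0.05 in limma). Their part in the 129 results was not tested.

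**Figure D5:**
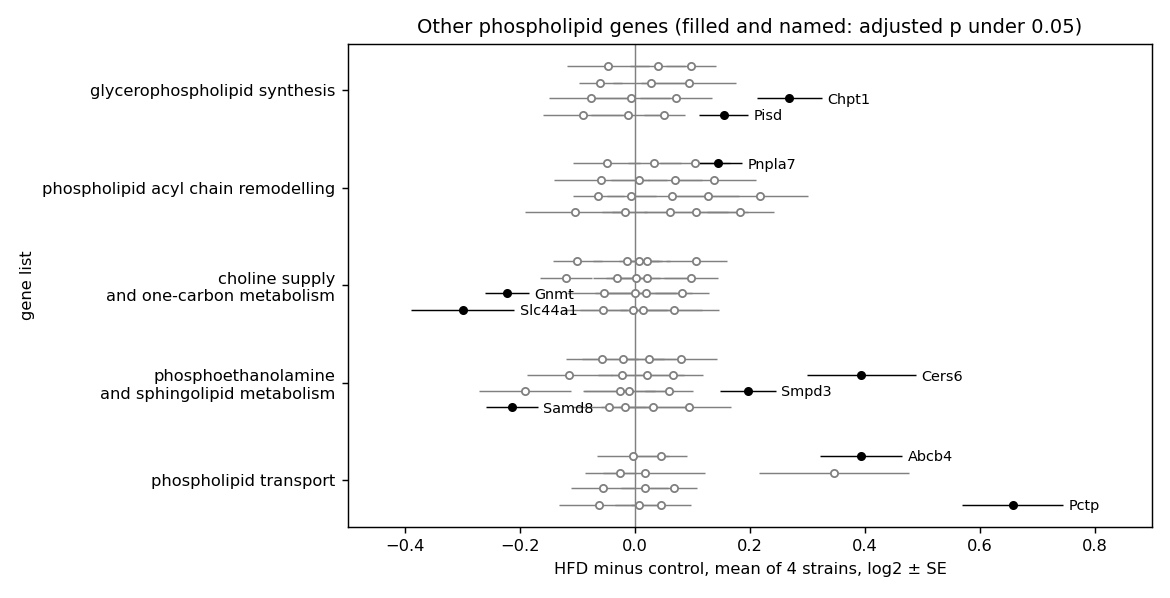
Mean HFD minus control difference over 4 strains on the log2 scale (x axis) with its SE for the 84 measured genes of 5 phospholipid gene lists (y axis), filled and named where limma's adjusted p was under 0.05. Pctp at 0.66 lies furthest to the right and Slc44a1 at -0.30 furthest to the left, and 74 of the 84 genes are open.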

How the data were processed

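Liver RNA of 72 mice was hybridised to 1 array each. The authors deposited log2 signals per probe set, which the submitters' processing notes attribute to RMA as run by Affymetrix Expression Console 1.1; the build behind the probe sets is not given in the sources used here. RMA subtracts background, equalises the distributions of arrays and summarises probes, which compresses folds of dim genes. Array medians followed strain, and the arrays were treated as 3 sets normalised apart. Of 35556 probe sets, 21789 carried 1 gene symbol, 1621 several and 12146 were not listed; 21698 matched a gene table by identifier. No 2 arrays were identical (highest r within a group 0.9954).

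The members and gene lists were chosen with earlier results of these data known. For 19938 genes, limma 3.58.1 (R 4.3.3) fitted 8 group means over all arrays with 64 residual degrees of freedom and moderated the variances. A single residual spread per gene served all groups. p-values were two-sided and adjusted by Benjamini-Hochberg over all genes of a contrast. Adjusted p-values throughout come from this fit. Nothing in the labels says which livers shared a cage or day, and a p-value here reflects only the scatter among these livers. Arrays give no read depth, and their number limits precision.

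Named genes were those listed, and the pathway and marker genes called in at least 2 strains. Up to 3 more per list were those with the lowest p for the mean of the strains. The genes most like each member were named too, and for Mfsd2a and Etnppl also those least like it. Dbp, Nr1d2, Cry1, Per2, Pla2g4a and Gdpd1 were added after their values were seen. Alternatives were median centring, quantile normalisation within sets, brighter genes only, array weights, only the compared strains, the replicate number as a block, averaging probe sets, omitting each array, and, added after seeing the data, the array part as a block and likeness without 129 control replicate 6. Same-numbered control and HFD arrays deviated together in B6N (r 0.101 to 0.462 over 8 pairs), where the numbers also follow the array parts, and not in every pair of 129, B6J and C3H (lowest r -0.22, -0.294 and -0.271).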

Additional observations from a re-analysis of the deposited data

Results flagged for a closer look

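Of 56 sets of a member and a group of 7 or 8 arrays, 8 held an array far from the others, where chance alone flags about 1 in 20. The group of 18 C3H controls was not examined in this way. Of the 8 values, 4 came from 129 control replicate 6, the array that carried most of the main residual axis of its strain. It was lowest for Pcyt1a (8.08), Pcyt2 (10.72), Etnk1 (7.93) and Lpcat3 (10.59). Without it the HFD minus control difference in 129 was -0.08 for Pcyt1a, 0.03 for Pcyt2, -0.04 for Etnk1 and -0.03 for Lpcat3. Pcyt1a was also lowest in B6N control replicate 6 (6.82, next 7.22) and in C3H HFD replicate 3 (5.66, next 6.08). Etnk1 was highest in 129 HFD replicate 1 (9.46, next 9.01). Etnppl was highest in B6N control replicate 1 (10.53, next 10.19), and the B6N difference without that array was -1.19. No array of Mfsd2a, Chka or Pemt stood apart in this sense.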

How the results depend on the processing

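All 256 diet differences of the members under other settings moved by less than the larger SD of the groups compared. All 576 with 1 array left out did too, but this was fixed in advance, since 1 array cannot move its group mean by a full SD. Some calls of members changed, as given above. Between B6N and B6J, 0 of 8 members were called under every alternative run. The count of called genes changed by over 1.5 times with array weights (129 from 115 to 576, B6J from 59 to 129, C3H from 170 to 105, B6N against B6J on HFD from 38 to 347), with only the compared strains (41, 95 and 93 in 129, B6J and C3H) and with the array part as a block (200 in 129, 321 in C3H). Leaving out 1 array gave 69 to 158 calls in 129, 38 to 61 in B6J, 143 to 187 in B6N, 139 to 210 in C3H, 576 to 664 for the mean of the strains, and 6 to 10 and 22 to 50 between the B6 strains for controls and HFD. The extremes for 129 were without HFD replicates 6 and 5, for B6J the lowest was without control replicate 5, and for the B6 strains on HFD the lowest was without B6N HFD replicate 5.

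The replicate block gave 116, 67, 186 and 233 calls in 129, B6J, B6N and C3H and 626 for the mean; besides Gnmt in C3H and Slc44a1 it ended no call of a named pathway gene. Over all strains 6 of 30 control arrays correlated best with the HFD array of their own number. Scaling moved the share of higher calls in C3H from 60.6% (103 of 170) to 48.9% with median centring (69 of 141), and in 129 from 76.5% (88 of 115) to 66.2% with quantile normalisation (92 of 139). The cause of these shifts was not tested. The correlations of Mfsd2a with Use1, 4933434E20Rik and Mbl1 turned to 0.16, 0.15 and 0.16 within B6N. Each member had 1 single-symbol probe set, so that alternative gave no second value. Without detection calls, folds from signals near the array median are uncertain.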
